A study of Mus musculus with 8 samples.

Results

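*Myc*-high microglia one day after nerve injury were taken as the cells with at least 2 *Myc* UMIs (unique molecular identifiers, each of which marks one captured RNA molecule) in the day 1 libraries. Only barcodes with at least 1000 UMIs, at least 500 genes and at most 10% mitochondrial UMIs were kept. The members were thus chosen by their *Myc* count alone. The rule gave 249 of 3323 kept barcodes in control day 1 and 43 of 886 in A20 cKO day 1, which were 292 of the 4209 kept day 1 barcodes and of 14626 kept barcodes in the series. The level of *Myc* in them is therefore a description and no result, while the other genes were not used by the rule.

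The cells were YFP-positive cells sorted from the lumbar cord of C57BL/6 mice, in 8 single-cell libraries with 1 library per group. The control day 1 animals were *Cx3cr1-yfp-creER/+*, and the A20 cKO day 1 animals carried in addition *Tnfaip3 fl/fl*. Both were taken 1 day after bilateral sciatic nerve transection, and the other 6 libraries were the naive, day 2 and day 3 animals of both genotypes. Per the methods of the study, cords of several young adult animals were pooled per group and tamoxifen was used to drive recombination. CreER from the *Cx3cr1* locus acts in other *Cx3cr1*-positive macrophages as well as in microglia, and all 8 groups carried this allele. A 3′ tag does not read the deleted part of *Tnfaip3*, so the deletion was not checked here. With 1 pool per group, genotype cannot be told apart from the preparation of that library.

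MYC is a transcription factor that binds DNA together with its partner MAX, typically at the E-box CACGTG. It is best known for raising the output of genes for ribosome assembly, nucleotide synthesis, protein folding and translation when a resting cell prepares to divide. Microglia, the macrophages that live in brain and spinal cord tissue, rarely divide in the healthy cord and expand after peripheral nerve injury. *Myc* lies on mouse chromosome 15 (GRCm38, chr15:61985391-61990374, plus strand).

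The E-box was looked for in the 250 bases before the start of each RefSeq gene (GRCm38.p6). CACGTG reads the same on both strands, and a match is a description of these letters and not a binding site. Of 40 listed genes for growth, nucleotide and polyamine metabolism, 37 had a promoter in the table and 14 of them (37.8%) held CACGTG, beside 1854 of all 27025 genes (6.86%). Only 1 of 33 genes for the nucleolus and ribosome biogenesis (3.03%) held it, and none of 19 interferon response genes did. It was found in 6 of 23 immediate-early genes (26.1%) and in 3 of 13 genes of the MYC and MAX network (23.1%). The sequences of 5 growth genes, chosen after their values were seen, are printed to set the letters beside the ratios given below, 4 of them with ratios above 0 in both libraries and *Apex1* with one below 0 in A20 cKO day 1. They are shown with the E-box in capitals and 12 bases on either side. In GENCODE the gene *Impdh2* starts at chr9:108560286, so its printed stretch lies inside that gene model and before the RefSeq start only.
Impdh2 (chr9:108560314-108560343, plus strand): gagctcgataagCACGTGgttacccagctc
Eif4a1 (chr11:69672595-69672624, minus strand): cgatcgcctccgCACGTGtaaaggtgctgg
Set (chr2:30061850-30061879, plus strand): gccacaggcttcCACGTGcaacccggggtt
Hspd1 (chr1:55088306-55088335, minus strand): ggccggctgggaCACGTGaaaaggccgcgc
Apex1 (chr14:50924913-50924942, plus strand): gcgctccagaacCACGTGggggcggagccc
*Impdh2* makes a rate-limiting enzyme of guanine nucleotide synthesis, *Eif4a1* an RNA helicase of translation initiation, *Set* a histone chaperone and *Hspd1* a mitochondrial chaperonin.

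*Myc*-high cells were 7.49% of kept barcodes in control day 1 (exact 95% interval 6.62 to 8.44) and 4.85% in A20 cKO day 1 (3.53 to 6.48). Among the other control libraries the share was 0.528% before injury, 2.51% on day 2 and 1.61% on day 3. In the A20 cKO it was 1.98% before injury, 3.30% on day 2 and 2.51% on day 3. Deeper cells pass a fixed UMI count more easily, so each cell was also thinned to 2000 UMIs, which left out 98 control and 56 A20 cKO day 1 barcodes. The thinned shares were 2.17% (1.70 to 2.73) in control day 1 and 1.81% (1.01 to 2.96) in A20 cKO day 1, and lay between 0.199% and 0.852% in the other 6 libraries. The point values of both day 1 libraries were thus above the rest on either measure. The control day 1 intervals did not overlap those of the other 6 libraries. That of A20 cKO day 1 overlapped those of A20 cKO day 2 (2.08 to 4.95) and day 3 (1.38 to 4.17). Thinned, it overlapped those of all the others except control day 2 (0.263 to 0.746). All intervals in the text cover counting error only and not the spread between animals. They are exact Clopper-Pearson intervals for shares and exact conditional intervals for ratios.

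The threshold did not cut between 2 separate kinds of cell. In control day 1, 2392 barcodes had 0 *Myc* UMIs, 682 had 1, 160 had 2 and 89 had 3 or more, up to 12 in one barcode. For A20 cKO day 1 the numbers were 682, 161, 35 and 8, with at most 5 in one barcode. The members just inside the threshold, with 2 UMIs, were thus 195 of 292, and 843 barcodes with 1 UMI lay just outside. If every cell had held the same share of *Myc* as its whole library, 222.8 control and 33.9 A20 cKO day 1 barcodes would have reached 2 UMIs from depth alone. At 3 or more UMIs the same calculation gave 34.5 in control day 1, where 89 were counted, and 4.08 in A20 cKO day 1, where 8 were counted. The members held 49.7% of the *Myc* UMIs of control day 1 and 37.8% of those of A20 cKO day 1.

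**Figure D1:**
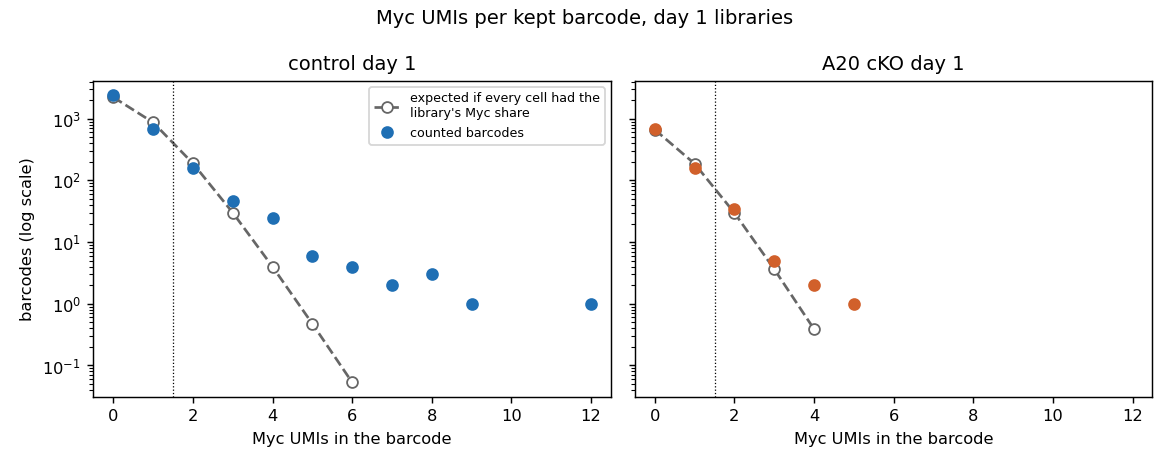
Barcodes (y axis, log scale) by their number of Myc UMIs (x axis) in the 2 day 1 libraries, as counted (filled) and as computed if every cell had the Myc share of its library (open); the dotted line is the threshold. At 3 or more UMIs, 89 control and 8 A20 cKO barcodes were counted where 34.5 and 4.08 were computed.

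The members carried the genes that define microglia. *P2ry12*, *Tmem119* and *Csf1r* had a UMI in 249 of 249 control members. *Tmem119* had one in 41 of the 41 A20 cKO members compared, and *P2ry12*, *Csf1r* and *Cx3cr1* in 40. *Fcrls*, another microglial gene, had one in 249 of 249 control members but in fewer cells of A20 cKO day 1. There it was found in 28 of 41 members (68.3%) and 63 of 115 *Myc*-0 cells (54.8%). The single markers *Ccr2* and *Cd163* were near 0, while a myelin gene and a gene of the choroid plexus were not in A20 cKO day 1. The whole list of monocyte and neutrophil markers was not near 0 there either. It had 170 UMIs in the 682 A20 cKO day 1 barcodes with 0 *Myc* UMIs and 18 in the 2392 of control day 1. In the 35 A20 cKO members with 2 *Myc* UMIs it had 10. *Ccr2*, the monocyte chemokine receptor, had 1 UMI over all control members and 1 over all A20 cKO members, and *Cd163*, a marker of border macrophages, had 0 in both, so up to 1.20% and 7.32% of cells could hold a *Cd163* UMI, and no limit is set on cells that express it. *Mbp*, a myelin gene, had a UMI in 11 of 249 control members and 42 of 747 matched *Myc*-0 cells, and in 14 of 41 A20 cKO members (34.1%) and 51 of 115 *Myc*-0 cells (44.3%). *Ttr*, a gene of the choroid plexus, had none in control day 1 and a UMI in 6 of 41 (14.6%) and 11 of 115 (9.57%) in A20 cKO day 1. The part of such RNA in the results below was not tested. Among 29 kept barcodes of the series without a UMI of *P2ry12*, *Tmem119*, *Csf1r* and *Cx3cr1*, none had a *Myc* UMI. Their median depth was 1355 UMIs and 4 of them were in A20 cKO day 1 and 0 in control day 1, so they set no limit on free *Myc* RNA in the day 1 members.

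Each member was then set against up to 3 barcodes of its own library with 0 *Myc* UMIs and a total within 10% of its own. This gave 249 members and 747 *Myc*-0 barcodes in control day 1 (median 5013 and 5006 UMIs) and 41 members and 115 *Myc*-0 barcodes in A20 cKO day 1 (4053 and 4003 UMIs). Another 2 A20 cKO members had no partner of like depth and were left out. The matched A20 cKO members had a median of 1924 genes beside 1833. Levels are given in CPM, the UMIs of a gene over all UMIs of the class, scaled to 1000000. Ratios are log2 ratios of these summed levels, *Myc*-high over *Myc*-0, with their 95% intervals. The day 1 comparison has 1 library per genotype, so no test was run on it. Barcodes found in more than one library were carried by 4 control members and by 7 of the A20 cKO members, of which 6 were shared with A20 cKO day 2. Because one cell can hold many copies of a chemokine or histone RNA, the UMIs of the top barcode are given where they matter.

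Genes for the nucleolus and ribosome assembly were on balance higher in *Myc*-high cells of both genotypes. Their summed level was 4063 CPM in *Myc*-high and 3637 CPM in *Myc*-0 cells of control day 1, a ratio of 0.16 (0.11 to 0.21). For A20 cKO day 1 it was 4804 and 3314, a ratio of 0.54 (0.42 to 0.66). Of the 16 list genes with at least 50 UMIs in each library, 11 had a ratio above 0 in both and 0 had one below 0 in both, where 757 of all 2475 genes (30.6%) were above 0 in both and 594 (24%) below. The list medians over these 16 genes were 0.19 and 0.58, beside medians over all 2475 genes of 0.00 and 0.07. The differences were small per gene, and no list gene reached 1.5-fold in control day 1, where 194 of 7776 genes did (2.49%). Of the 16 measured in A20 cKO day 1, 8 did, where 234 of 2510 genes did (9.32%), and 1 was 1.5-fold lower, *Nop10*. Without barcodes shared between libraries the A20 cKO list ratios were 0.52 for the nucleolus, 0.40 for growth and -0.73 for interferon response genes.

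*Ncl* encodes nucleolin, a major nucleolar protein that binds ribosomal RNA precursors. It stood at 489 CPM in *Myc*-high and 411 in *Myc*-0 cells of control day 1, a ratio of 0.25 (0.11 to 0.39). The A20 cKO levels were 755 and 422 CPM, a ratio of 0.84 (0.52 to 1.16). *Myc*-high cells were thus the higher class in both libraries, with intervals that excluded 0. *Ddx21*, a nucleolar RNA helicase, stood at 208 and 158 in control day 1 (0.40, 0.19 to 0.61) and at 345 and 193 in A20 cKO day 1 (0.84, 0.35 to 1.31). *Nop56* and *Nop58*, partner proteins that guide the modification of ribosomal RNA, had control ratios of 0.19 (0.01 to 0.37) and 0.19 (-0.08 to 0.46). Their A20 cKO ratios were 0.48 (0.03 to 0.90) and 1.57 (0.91 to 2.23), and *Nop58*, with a UMI in 23 of 41 members and 29 of 115 *Myc*-0 cells there, had the largest A20 cKO ratio of the 16. Not every member followed. *Fbl*, the methyltransferase of the same complex, had ratios of -0.06 (-0.29 to 0.15) and 0.29 (-0.53 to 1.03), and *Nop10* had 0.04 (-0.20 to 0.27) and -0.79 (-1.82 to 0.04).

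Growth genes were arranged alike, and 1 of 39 measured reached 1.5-fold in control day 1 and 8 of 28 in A20 cKO day 1. The list of growth, nucleotide and polyamine metabolism summed to 8359 CPM in *Myc*-high and 7598 in *Myc*-0 cells of control day 1 (0.14, 0.11 to 0.17). The A20 cKO sums were 7856 and 5982 CPM (0.39, 0.30 to 0.49), and 85.4% of members were above the median *Myc*-0 cell, beside 64.7% in control day 1. Of 28 genes measured in both libraries, 22 had ratios above 0 in both and 0 below 0 in both. *Cct2*, a subunit of the chaperonin that folds actin and tubulin, had ratios of 0.34 (0.06 to 0.61) and 1.09 (0.33 to 1.83), the highest of the list in each library among genes measured in both. *C1qbp*, a mitochondrial protein needed for mitochondrial translation, had 0.29 (0.04 to 0.53) and 0.85 (0.15 to 1.52).

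The genes whose E-box is printed above were measured in both libraries. *Eif4a1* stood at 1415 and 1274 CPM in control day 1 (0.15, 0.07 to 0.23) and at 1056 and 707 in A20 cKO day 1 (0.58, 0.32 to 0.84). *Impdh2* had ratios of 0.16 (-0.10 to 0.40) and 1.01 (0.26 to 1.74), *Set* had 0.13 (-0.04 to 0.30) and 0.51 (0.06 to 0.93), and *Hspd1* had 0.22 (0.00 to 0.42) and 0.50 (-0.01 to 0.98). The growth genes with and without the E-box are set side by side, with no test. The 12 with CACGTG had median ratios of 0.15 in control day 1 and 0.37 in A20 cKO day 1, and the 15 without it had 0.13 and 0.44. At the low end, *Nme2* had a control ratio of -0.53 (-1.52 to 0.28), and *Apex1*, a DNA repair enzyme whose E-box is printed above, had 0.15 (-0.12 to 0.40) in control day 1 and -0.23 (-1.34 to 0.70) in A20 cKO day 1. *Nme2* and *Nme1* are near-identical neighbours that can share reads, so their split is uncertain.

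**Figure D2:**
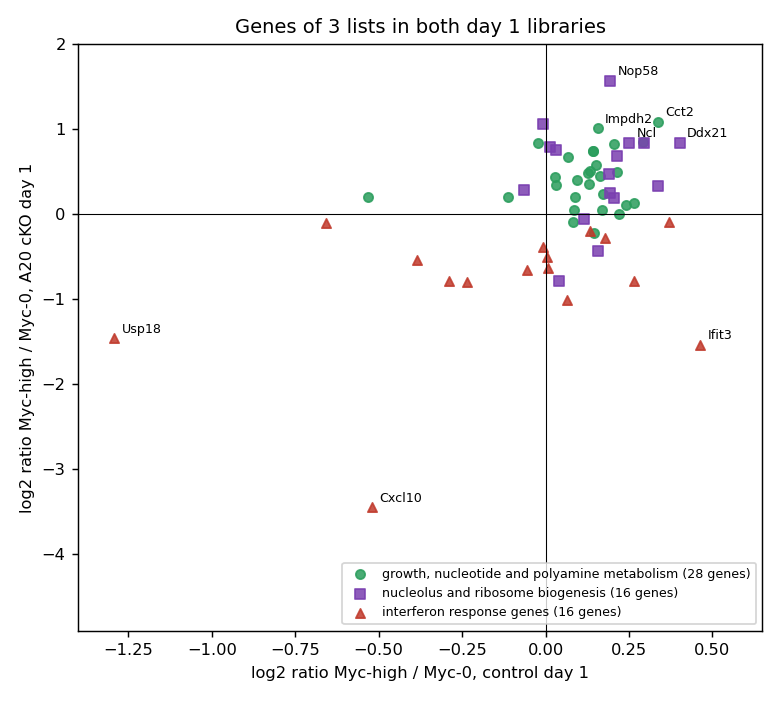
Log2 ratios of Myc-high over matched Myc-0 cells in control day 1 (x axis) and A20 cKO day 1 (y axis) for the genes of 3 lists with at least 50 UMIs in both libraries. Growth (28 genes) and nucleolar genes (16 genes) lie mostly above 0 on both axes, and all 16 interferon genes lie below 0 in A20 cKO day 1.

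The partners and rivals of MYC had intervals that included 0 as a summed list, and so did *Max* and *Pvt1*. The list of the MYC and MAX network, without *Myc* itself, had ratios of -0.07 (-0.24 to 0.10) and 0.08 (-0.28 to 0.42), though its median over 10 measured control genes was 0.09. Of these 10 genes 1 was at least 1.5-fold lower in control day 1, where 206 of 7776 genes were (2.65%). *Max*, the obligate partner, had -0.19 (-0.58 to 0.18) and 0.02 (-0.91 to 0.82). *Pvt1*, the long noncoding RNA next to *Myc*, had 0.06 (-0.63 to 0.68) in control day 1.

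Chaperone genes were higher as well. The heat shock list had ratios of 0.19 (0.15 to 0.23) and 0.17 (0.05 to 0.28). *Hspa5*, the chaperone of the endoplasmic reticulum, had 0.29 (0.22 to 0.36) in control day 1 and 0.01 (-0.21 to 0.22) in A20 cKO day 1. *Hspa9*, its mitochondrial relative, had 0.58 (0.31 to 0.84) and 0.52 (-0.23 to 1.21). *Hspa1a*, an inducible heat shock gene that also responds to tissue dissociation, had 279 UMIs in control members and 0 UMIs in both classes of A20 cKO day 1. Immediate-early genes, which answer to dissociation too, made up 32696 CPM in the control *Myc*-high cells and 2566 CPM in the A20 cKO *Myc*-high cells. *Fos* had a UMI in 249 of 249 control members and 747 of 747 *Myc*-0 cells, and in 1 of 41 and 3 of 115 in A20 cKO day 1. Within a library the immediate-early list was higher in *Myc*-high cells, with ratios of 0.04 (0.02 to 0.05) in control day 1 and 0.25 (0.09 to 0.41) in A20 cKO day 1, where 2 of 9 measured genes were 1.5-fold higher. The part of this state in the *Myc* results was not tested.

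Chemokine genes led the ranking in control day 1. *Ccl7*, *Ccl2* and *Ccl12* encode ligands that attract monocytes, and they came first among the 12 genes highest in control day 1 with a ratio above 0 in A20 cKO day 1 too. *Ccl7* stood at 117 CPM in *Myc*-high and 34.0 in *Myc*-0 cells (1.78, 1.44 to 2.14), but 34 of its 149 UMIs in members came from one barcode, and 46 of 249 members had it beside 95 of 747 *Myc*-0 cells. *Ccl2* stood at 785 and 572 (0.46, 0.35 to 0.57), and *Ccl12* at 4836 and 3758 (0.36, 0.32 to 0.41). The A20 cKO ratios of the 3 were 0.52 (-0.36 to 1.33), 0.22 (-0.06 to 0.49) and 0.02 (-0.08 to 0.12), each with an interval that included 0. *Ccl7* had a UMI there in 6 of 41 members and 21 of 115 *Myc*-0 cells.

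The whole list of NF-kB target and cytokine genes had a ratio of 0.25 (0.22 to 0.28) in control day 1 and -0.11 (-0.19 to -0.03) in A20 cKO day 1. The median over its 25 measured control genes was 0.06, so the sum was carried by a few abundant chemokines. The A20 cKO value depended on which *Myc*-0 cells were drawn and was 0.37 with 1 partner per member and 0.030 with 3 other partners. *Ccl3* had 0.23 (0.14 to 0.32) in control day 1, and in A20 cKO day 1 its ratio of 0.64 turned to -0.92 without the top barcode of each class. The share of cells with a *Ccl3* UMI was lower in members of both libraries. It was 207 of 249 (83.1%) beside 655 of 747 *Myc*-0 cells (87.7%) in control day 1, and 4 of 41 beside 16 of 115 in A20 cKO day 1. *Cd83*, a surface marker of activated antigen-presenting cells, was on the low side in both, with -0.41 (-0.70 to -0.14) and -0.97 (-1.79 to -0.28).

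The other genes that the ranking named on the high side were *Hmgb2*, a chromatin protein of dividing cells, with 0.54 (0.29 to 0.79) in control day 1 and 0.04 (-0.62 to 0.64) in A20 cKO day 1, and *Rbm28*, a nucleolar RNA-binding protein, with 0.50 (0.18 to 0.80) and 0.34 (-0.35 to 0.97). *Snhg6*, a host gene of small nucleolar RNAs, had 0.58 (0.18 to 0.97) and 0.84 (0.00 to 1.64). *Gcnt2*, a glycosyltransferase, had 0.64 (0.19 to 1.06) and 0.20 (-0.61 to 0.93), and *Slc15a3*, a lysosomal peptide transporter, 0.27 (0.14 to 0.40) and 0.03 (-0.41 to 0.44). On the low side stood *Adgre1*, which encodes the macrophage antigen F4/80, with -0.55 (-0.81 to -0.29) and -0.16 (-1.02 to 0.58). *Cebpa*, a myeloid transcription factor, had -0.31 (-0.48 to -0.15) and -0.07 (-1.02 to 0.75). *Secisbp2l*, *Cyb5a* and *Papss1* had control ratios of -0.86, -0.42 and -0.48 and A20 cKO ratios of -0.15, -0.54 and -0.38.

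In control day 1, 206 of 7776 genes were 1.5-fold lower (2.65%). No gene was 1.5-fold higher in both libraries (0% of 2475), and 4 were 1.5-fold lower in both (0.162%). These were *Usp18* with -1.29 (-2.91 to -0.16) and -1.46 (-2.46 to -0.66), *Trim12c* with -0.95 (-1.89 to -0.19) and -1.77 (-3.58 to -0.58), *Parp14* with -0.68 (-1.37 to -0.08) and -1.17 (-1.99 to -0.49), and *Dynlt1c* with -0.71 (-1.62 to 0.04) and -0.76 (-1.84 to 0.12). *Usp18* restrains interferon signalling and *Parp14* is induced by it. These ratios rest on few molecules, since *Usp18* had 6 UMIs in control members and 13 in A20 cKO members.

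Interferon response genes were lower in the *Myc*-high cells of A20 cKO day 1. Their summed level was 4946 CPM in *Myc*-high and 8651 in *Myc*-0 cells, a ratio of -0.81 (-0.91 to -0.70). All 22 list genes with at least 50 UMIs had a ratio below 0, and 13 were 1.5-fold lower, where 172 of 2510 genes were (6.85%). The size depended on the *Myc*-0 cells, with -0.52 against 3 other partners and -0.34 against all *Myc*-0 cells without matching. *Cxcl10*, a chemokine for T cells, stood at 54.7 and 624 CPM (-3.44, -4.59 to -2.61), with a UMI in 7 of 41 and 32 of 115 cells. *Ifit3*, an interferon-induced gene, stood at 137 and 404 (-1.54, -2.22 to -0.96). Nearest to 0 among genes measured in both libraries were *Trim30a* and *Ddx58*, both with -0.10. In control day 1 the list stood lower, at 780 and 786 CPM (-0.01, -0.12 to 0.09), with 8 of 17 measured genes above 0. The other A20 cKO libraries had list ratios of -0.17 (naive), -0.21 (day 2) and -0.45 (day 3). A ratio below 0 was also seen in control day 2, with -0.19 (-0.33 to -0.05). Control day 3 had 0.08 (-0.03 to 0.19), and control naive had 0.14 (-1.41 to 1.37) on 7 UMIs in *Myc*-high cells. The difference between the genotypes was not tested.

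Genes of disease-associated microglia, a lipid-handling state, had ratios of -0.08 (-0.12 to -0.05) and -0.62 (-0.73 to -0.52). *Apoe*, a lipid carrier, stood at 433 and 476 CPM in control day 1 (-0.13, -0.28 to 0.00) and at 372 and 1953 in A20 cKO day 1 (-2.38, -2.77 to -2.04), where 221 of its 939 *Myc*-0 UMIs came from one barcode. The A20 cKO list ratio was -0.31 against 3 other partners. *Cst7*, a protease inhibitor, had -0.44 (-1.53 to 0.45) and -2.12 (-4.21 to -0.83). *Slc1a3*, a glutamate transporter counted among the astrocyte markers, was lower too, with 28 UMIs in members and 147 in *Myc*-0 cells of A20 cKO day 1, while *Aqp4* and *Gja1* of that list were at 0. In all 6 astrocyte markers the sums were 29 and 157 UMIs there and 108 and 404 in control day 1, and their part in these differences was not tested.

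Homeostatic microglia genes differed by little. Their ratio was -0.07 (-0.07 to -0.06) in control day 1 and 0.01 (-0.02 to 0.04) in A20 cKO day 1. *P2ry12*, a receptor for extracellular nucleotides, had -0.18 (-0.24 to -0.12) and 0.12 (-0.12 to 0.35). *Fcrls*, a microglial surface receptor, had -0.03 (-0.11 to 0.04) and 0.92 (0.59 to 1.25). The list of CSF1 receptor and STAT3 signalling genes had 0.00 (-0.07 to 0.06) and 0.44 (0.22 to 0.66). Its *Dusp6*, a feedback phosphatase of ERK signalling, had -0.07 (-0.17 to 0.03) and 0.63 (0.24 to 1.00). Over all kept A20 cKO day 1 barcodes, without matching, the list did not rise steadily with *Myc*. It stood at 1223 CPM with 0 *Myc* UMIs, 1199 with 1, 1492 with 2 and 1193 with 3 or more.

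**Figure D3:**
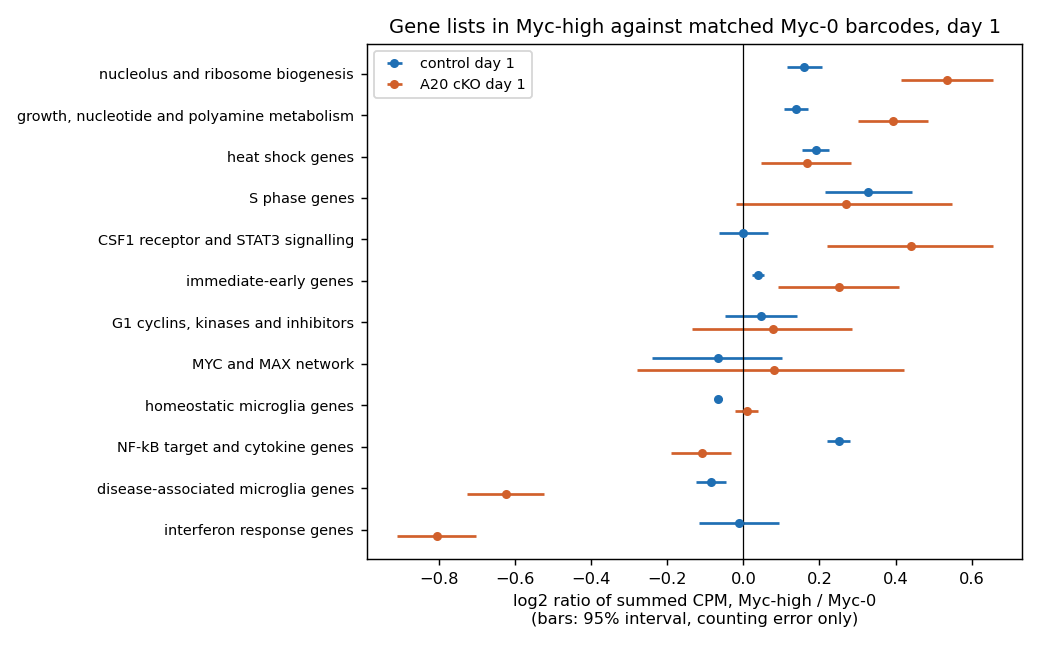
Log2 ratio of the summed CPM of 12 gene lists (y axis) in Myc-high over matched Myc-0 cells (x axis), for control day 1 and A20 cKO day 1; bars are 95% intervals of counting error. The nucleolar and growth lists lie above 0 in both libraries, and the interferon list lies at -0.01 in control day 1 and at -0.81 in A20 cKO day 1.

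Genes of DNA replication were on the high side in control day 1. The S phase list had a ratio of 0.33 (0.21 to 0.44), with 14 of 16 measured genes above 0. *Cdt1* and *Dut*, which license replication origins and keep uracil out of DNA, had 1.03 (0.44 to 1.59) and 1.01 (0.34 to 1.65). The A20 cKO S phase ratio was 0.27 (-0.02 to 0.55) on 151 UMIs in members, while its 2 genes with enough UMIs had a median of -0.13. G2/M genes had few UMIs, and their summed level was on the high side in both libraries, though single barcodes held much of some genes in A20 cKO members. Their ratio was 0.79 (0.24 to 1.31) in control day 1, on 49 UMIs in members and 85 in *Myc*-0 cells. In A20 cKO day 1 it was 0.62 (0.28 to 0.95) on 120 and 206. Before matching, the 35 A20 cKO members with 2 *Myc* UMIs held 112 G2/M UMIs and the 8 with 3 or more held 143. The members without a partner thus held a large part that the ratio leaves out. Without matching, the control level was 17.9 CPM with 0 *Myc* UMIs, 51.9 with 1, 41.7 with 2 and 33.3 with 3 or more. *Top2a*, the topoisomerase that untangles replicated DNA, had a UMI in 10 of 249 control members (4.02%) and 11 of 747 *Myc*-0 cells (1.47%), and in 5 of 41 and 13 of 115 A20 cKO cells, where 21 of the 30 UMIs in members came from one barcode. *Mki67*, a marker of dividing cells, had a UMI in 1 of 249 members and 3 of 747 *Myc*-0 cells of control day 1. Of its 19 UMIs in A20 cKO members, 17 came from one barcode, and 3 of 41 members had it beside 10 of 115 *Myc*-0 cells. *Cdk1* had a UMI in 8 of 249 members and 15 of 747 *Myc*-0 cells of control day 1. In A20 cKO day 1 it had one in 2 of 41 and 8 of 115, with 5 of the 6 UMIs in members from one barcode. The G1 list had ratios of 0.05 (-0.05 to 0.14) and 0.08 (-0.13 to 0.28), with the cyclin *Ccnd1* at 0.03 (-0.20 to 0.24) and 0.11 (-0.38 to 0.57).

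Over all kept day 1 barcodes the levels can be followed along the number of *Myc* UMIs, though depth was not matched here and median totals went from 3920 to 5227 UMIs in control day 1 and from 3008.5 to 4776 in A20 cKO day 1. In control day 1 the growth list stood at 7023 CPM with 0 *Myc* UMIs, 7518 with 1, 8154 with 2 and 8697 with 3 or more. The A20 cKO levels were 5634, 6586, 7747 and 7626. The nucleolar list went from 3360 CPM to 3615 and 4141 and then stood at 3934 with 3 or more in control day 1, and at 3387, 4341, 4831 and 4187 in A20 cKO day 1. It was thus lower at 3 or more *Myc* UMIs than at 2 in both libraries. The cells with 1 *Myc* UMI, just outside the threshold, lay between the classes on either side for these lists in both libraries. The interferon list of A20 cKO day 1 stood at 6284, 5429, 5078 and 4608, and that of control day 1 at 808, 753, 824 and 706.

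**Figure D4:**
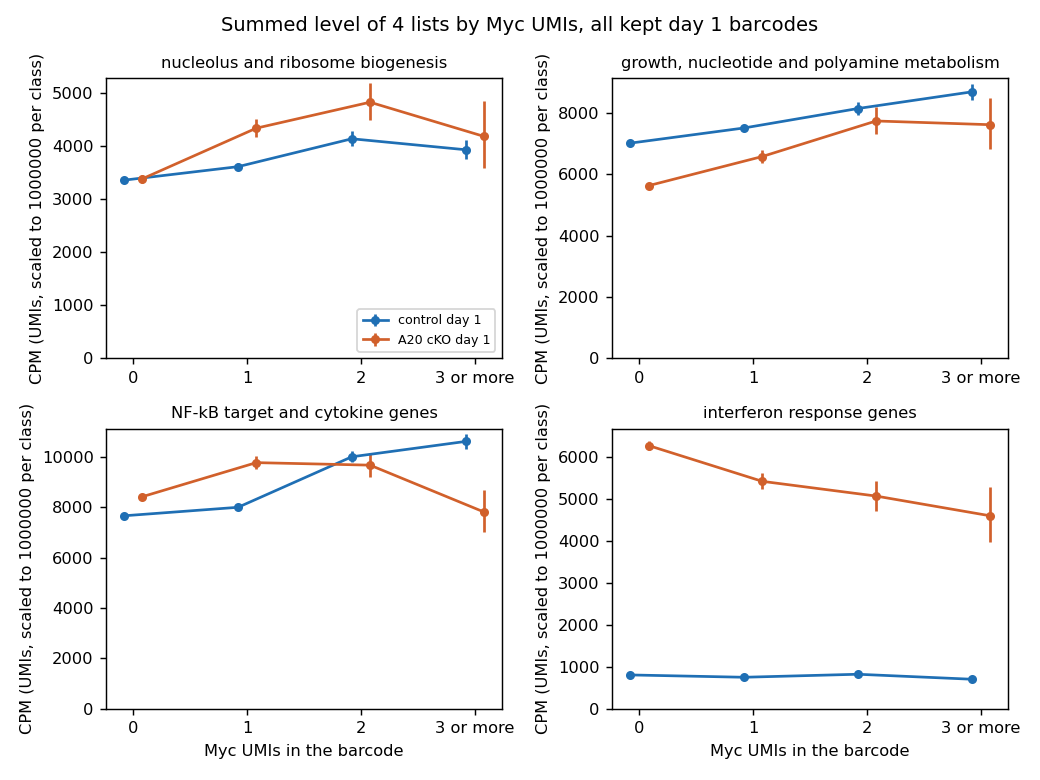
Summed CPM (y axis, from 0) of 4 gene lists by the number of Myc UMIs in the barcode (x axis), over all kept barcodes of the 2 day 1 libraries, with exact Poisson 95% intervals. The growth list of control day 1 goes from 7023 to 8697, and the interferon list of A20 cKO day 1 goes from 6284 to 4608.

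The same rule was applied to the 6 libraries that had not chosen these cells, where it gave 221 barcodes, from 3 in control naive to 90 in control day 2. These libraries allow a test with the library as the replicate. Of 7569 genes tested with edgeR's quasi-likelihood test, with the library as a block, 3 were higher in *Myc*-high cells (0.0396%) and 11 lower (0.145%) at an adjusted p under 0.05. At an unadjusted p under 0.05 there were 296 genes. None of the 38 nucleolar and none of the 37 growth genes tested passed. Of these, 30 and 28 had a ratio above 0, with medians of 0.16 and 0.10, beside 3530 of all 7569 genes above 0 and a median of -0.02. The heat shock genes were above 0 in 7 of 7, and the interferon genes below 0 in 21 of 25 with a median of -0.22. *Ncl* had 0.02 (adjusted p = 1.00, edgeR) and *Nop58* 0.44 (adjusted p = 1.00, edgeR; unadjusted p = 0.0316, edgeR).

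The 3 genes that rose were *Ier2*, an immediate-early gene, by 0.74 (adjusted p = 0.00131, edgeR), *Lgals3*, which encodes galectin-3, by 1.60 (adjusted p = 0.0124, edgeR) and *Ccl2* by 0.51 (adjusted p = 0.0314, edgeR). *Lgals3* rested on a few cells, with 22 of 25 UMIs of the control day 2 members and 19 of 20 of the A20 cKO naive members in one barcode each. *Ccl2* was above 0 in 4 of the 5 libraries where it had UMIs. The genes that fell included *Cxcl10* with -1.67 (adjusted p = 1.29e-16, edgeR), which was below 0 in all 5 libraries where it had UMIs. *Apoe* had -0.92 (adjusted p = 9.73e-14, edgeR) and was below 0 in 6 of 6. *Il12b*, a cytokine subunit, had -6.25 (adjusted p = 1.12e-24, edgeR), but 191 of its 246 *Myc*-0 UMIs in A20 cKO day 2 came from one barcode. *Cxcl13*, *Ccl5*, *Cdkn1a*, *Ccl7*, *Hist1h2ap*, *Rrm2*, *Hist4h4* and *Nusap1* also fell, with ratios between -0.61 and -2.40. *Cxcl10* stayed past the threshold in 13 of 17 alternative settings, *Apoe* in 14 of 17, *Ier2* in 11 of 17, *Ccl2* in 9 of 17 and *Lgals3* in 7 of 12. Other calls held less often, with *Hist1h2ap* past it in 8 of 17, *Hist4h4* in 6 of 16, *Nusap1* in 5 of 17 and *Rrm2* in 4 of 17. *Il12b* held in 13 of 15, *Cxcl13* and *Cdkn1a* in 13 of 17, *Ccl5* in 11 of 17 and *Ccl7* in 10 of 16. DESeq2 called 0 genes higher and 1 lower.

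Whether the difference on day 1 departed from that in the other 6 libraries was tested as an interaction over all 8. Of 8219 genes 1 was higher (0.0122%) and 0 lower (0%) by edgeR, with 212 genes at an unadjusted p under 0.05, and DESeq2 called 0. The gene was *Ccl7* (GRCm38, chr11:82045712-82047525), with an interaction of 3.89 on the log2 scale (adjusted p = 2.19e-13, edgeR). It stood at 117 and 34.0 CPM in *Myc*-high and *Myc*-0 cells of control day 1 and at 109 and 77.0 in A20 cKO day 1. In the A20 cKO naive, day 2 and day 3 libraries it stood at 9.16 and 70.2, 0 and 45.4, and 26.5 and 186, and in control day 2 and day 3 at 1.81 and 7.37, and 21.4 and 26.2. The summed level in *Myc*-high cells was therefore above that in *Myc*-0 cells in both day 1 libraries and below it in all 5 others with a UMI. In A20 cKO day 1 the share of cells with a *Ccl7* UMI went the other way, with 6 of 41 members (14.6%) and 21 of 115 *Myc*-0 cells (18.3%). The intervals of A20 cKO day 1, control day 2 and control day 3 included 0. Single barcodes held 34 of the 42 *Myc*-0 UMIs of A20 cKO day 3, 21 of 45 of A20 cKO naive and 8 of the 20 UMIs of A20 cKO day 1 members. Without control day 1 the interaction called 0 genes higher, and over the 14 alternative settings *Ccl7* was past the threshold in 11, with adjusted p from 2.23e-14 to 0.595 (edgeR, DESeq2). The growth list had a median interaction of 0.10 with 27 of 39 genes above 0, and the nucleolar list -0.03 with 17 of 38, beside 0.00 over all genes; no gene of either passed. The G2/M list had the highest median of the lists with over 10 genes tested, 0.71 with 14 of 18 above 0, on the few UMIs and single barcodes given above. *Ncl* had 0.40 (adjusted p = 1.00, edgeR; unadjusted p = 0.032, edgeR).

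**Figure D5:**
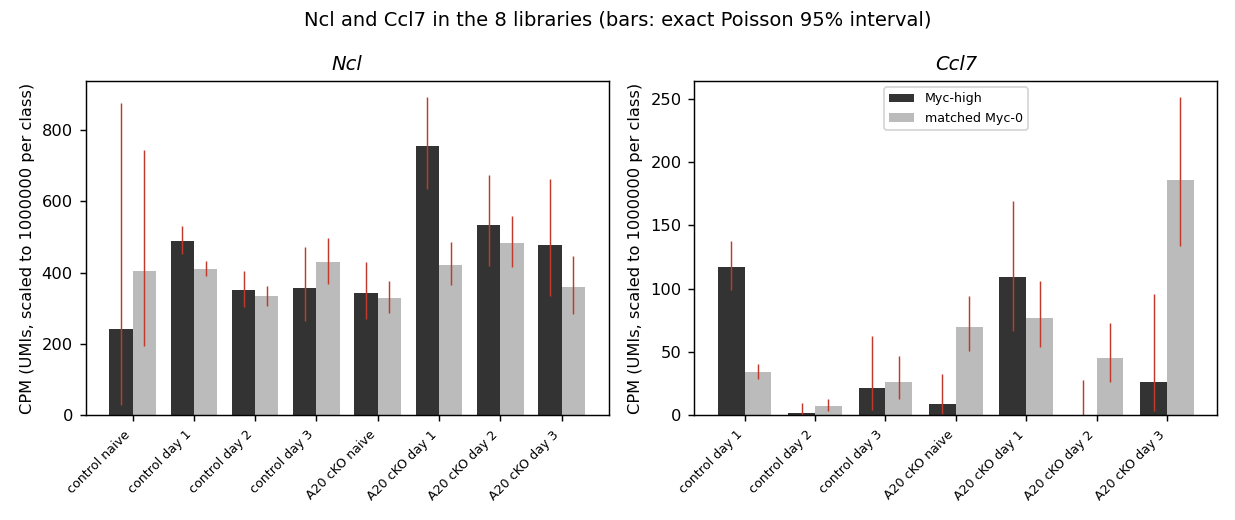
CPM (y axis) of Ncl and Ccl7 in Myc-high and matched Myc-0 cells of each library (x axis), with exact Poisson 95% intervals; control naive, where Ccl7 had 0 UMIs in both classes, is left out of its panel. Ncl is at 489 and 411 in control day 1 and 755 and 422 in A20 cKO day 1. The summed level of Ccl7 is higher in Myc-high cells in the 2 day 1 libraries.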

How the data were processed

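Raw UMI counts, not normalized, had been deposited by the authors as 8 sparse matrices of genes by barcodes, and per the labels they were made with Cell Ranger 2.1.1 on mm10. The mitochondrial, gene and UMI filters given above were applied here, and 14626 of 14883 barcodes were kept, with medians of 2780 to 4274 UMIs and library totals of 1648400 to 15817426. Per the methods, doublets were excluded by gating in the sort, before cells entered droplets. No doublet caller was run here, so barcodes with more than one cell were not looked for. The deepest 2% of barcodes held 10 control and 7 A20 cKO members. One planned microglia marker is not reported here, and the check of barcodes without microglia markers was run on the others named above. The members and gene lists were chosen with earlier results of these data known. Members were matched on total UMIs to barcodes with 0 *Myc* UMIs, and their counts were summed. Log2 ratios add 0.5 UMIs, and genes needed 50 UMIs in both sums together. The cells of a library share one pool of animals, so day 1 values carry no test. For the other 6 libraries (genes with at least 60 UMIs) and the interaction (at least 100), edgeR 4.0.16 was used with TMM, the library as a block and Benjamini-Hochberg adjustment at 0.05, with DESeq2 1.42.0 as an alternative. The p-values measure how the difference between *Myc*-high and *Myc*-0 sums spreads over single libraries, which mix genotypes and days. Both steps were tested on simulated data. Named genes were list members, the 12 highest and 8 lowest in control day 1 by the interval bound nearest 0 with the same sign in A20 cKO day 1, and the genes with the lowest p past the threshold; mitochondrial, ribosomal-protein, sex-linked marker and predicted genes were left out of these rankings. Analyses used R 4.3.3 and Python 3.11.15, with promoters from RefSeq and gene positions from GENCODE.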

Additional observations from a re-analysis of the deposited data

Results flagged for a closer look

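*Ccl7* differed between day 1 and the other 6 libraries in its *Myc*-high difference, with an interaction of 3.887 on the log2 scale (adjusted p = 2.19e-13, edgeR). Single barcodes held 34 of its 42 *Myc*-0 UMIs in A20 cKO day 3, 21 of 45 in A20 cKO naive and 8 of 20 UMIs of A20 cKO day 1 members, and DESeq2 did not call it. The other results here had opposite signs in the 2 day 1 libraries, with intervals of counting error that excluded 0 in each; the difference between the libraries was not tested. The NF-kB list had 0.2502 in control day 1 and -0.1101 in A20 cKO day 1, and the latter changed sign with other *Myc*-0 partners. *Ccl4*, a chemokine, had 0.1966 and -0.7111. In A20 cKO day 1 single barcodes held 41 of its 60 UMIs in members and 49 of its 260 in *Myc*-0 cells. The share of cells with a *Ccl4* UMI was close in the classes there, with 13 of 41 members (31.7%) and 34 of 115 *Myc*-0 cells (29.6%). The microglial genes *Tmem119* (-0.07715 and 0.1926), *Cx3cr1* (-0.0831 and 0.2913) and *Cst3* (-0.09577 and 0.2324) were slightly lower in *Myc*-high cells of control day 1 and slightly higher in those of A20 cKO day 1.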

How the results depend on the processing

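No paired analysis was possible because every group is a single library with the same replicate number; the *Myc*-high and *Myc*-0 sums of a library were joined by the library block instead. Of the values that answer a comparison, 111 kept their direction and size under an alternative, 54 moved and 3 turned; of the single genes, 602 held, 48 moved, 91 lost their call and 6 turned. The cause was not tested except where fewer cells or genes entered. Thinned to 2000 UMIs, the *Myc*-high share was 2.17% in control day 1 (2.14% with another seed) and 1.81% in A20 cKO day 1 (1.57%), since thinning removes UMIs. Genes 1.5-fold higher in both day 1 libraries numbered 0; there were 46 without matching on depth, 1 without barcodes shared between libraries, 1 without the deepest 2% of barcodes, 2 with the mean of cell CPM and 4 with 3 other *Myc*-0 partners. Those 1.5-fold lower in both numbered 4, and were 2 with 1 partner, 27 without matching and 1 with at least 100 UMIs per gene. The settings with 3 other partners or without the top barcode of each class were chosen after seeing the data, and the former kept 196 control and 36 A20 cKO members.

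Without matching, the ratios were 0.27 for the nucleolar list, 0.25 for the growth list and 0.42 for the NF-kB list in control day 1, and 0.14 for NF-kB, -0.34 for interferon and -0.36 for disease-associated genes in A20 cKO day 1. With at least 3 *Myc* UMIs the control nucleolar ratio was 0.085 and the growth ratio 0.19; the 7 matched A20 cKO members were too few for this setting. With 3 other partners the ratios were 0.18 for growth and 0.35 for NF-kB in control day 1, and 0.030 for NF-kB, -0.52 for interferon and -0.31 for disease-associated genes in A20 cKO day 1. With 1 partner they were 0.16 for NF-kB and -0.13 for disease-associated genes in control day 1, and 0.37 for NF-kB and -0.54 for interferon in A20 cKO day 1. Without the deepest 2% of barcodes the control NF-kB ratio was 0.21 and the A20 cKO growth ratio 0.49. The A20 cKO NF-kB ratio was -0.014 without shared barcodes and -0.011 with the mean of cell CPM, so its sign changed with the choice of cells. *Ccl3* in A20 cKO day 1 was -0.054 among barcodes without *Fos* and -0.92 without the top barcode of each class. The setting without *Fos* could not be run in control day 1, where it left 0 members.

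In the other 6 libraries, 3 genes were higher and 11 lower. The counts were 0 and 1 with DESeq2, 5 and 18 over all 8 libraries, 0 and 0 without the library block, 7 and 8 without matching, 2 and 4 with 1 partner, and 0 and 0 with at least 3 *Myc* UMIs. Leaving out a library gave 0 to 4 higher, with 0 without A20 cKO naive and 1 without A20 cKO day 3, and 6 to 10 lower, with 6 without A20 cKO naive. *Ccl5* had 0.13 with at least 3 *Myc* UMIs, *Ccl7* had 0.57 over all 8 libraries and 0.25 without matching, and *Hist1h2ap* had 0.19 without matching. The interaction called 1 gene higher and 0 lower. It called 0 and 0 with DESeq2, 2 and 1 with 3 other partners, 7 and 2 without matching, and 1 and 1 without shared barcodes. Leaving out a library gave 0 to 2 higher, with 0 without control day 1 and 2 without A20 cKO day 1 or A20 cKO day 2, and 0 to 1 lower. The 41 matched members of A20 cKO day 1 left 2510 genes with enough UMIs beside 7776 in control day 1.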

Other observations

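Markers of further cell types were counted in the same matched day 1 cells. Oligodendrocyte markers summed to 78 UMIs in members and 252 in *Myc*-0 cells of control day 1 (ratio -0.11, -0.50 to 0.26) and to 29 and 108 in A20 cKO day 1 (-0.48, -1.15 to 0.10). Lymphocyte markers summed to 33 and 142 UMIs in control day 1 (-0.51, -1.12 to 0.03) and to 3 and 21 in A20 cKO day 1. Endothelial markers summed to 18 and 72 UMIs and to 3 and 14, and neuron markers to 2 and 4 and to 1 and 1. Monocyte and neutrophil markers summed to 5 and 10 UMIs in control day 1 and to 11 and 34 in A20 cKO day 1, and erythrocyte markers had 0 UMIs in both classes of both libraries. None of the intervals printed here lay above 0.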
